A study of Mus musculus with 12 samples.

Results

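The transcript profile of the contused spinal cord of wild-type mice, 1 day after injury, was described from the 4 arrays titled C57BL/6, out of 12 arrays in the series. The mice were of the C57BL/6 strain, carried no deletion and were 8 to 12 weeks old. Their cords were struck at 50 kdyn with the Infinite Horizon device, which drives a tip onto the exposed cord until a set force is reached. A 6 mm piece with the lesion at its centre was removed 24 h later, and total RNA of the piece was hybridised to whole-transcript expression arrays. The other arrays came from mice lacking Il1a or Il1b and were not used. The labels number the 4 arrays as biological replicates without naming the animals, so the spread between them may be technical in part. No uninjured or sham-operated cord was analysed here. The values are therefore levels in injured tissue, and no gene can be said to have risen or fallen after injury. The piece was bulk tissue, so fewer cells of a type and less RNA per cell cannot be told apart.

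The spinal cord holds neurons, astrocytes, myelinating oligodendrocytes and their precursors, microglia, the cells of its blood vessels and the ependymal cells that line the central canal. A contusion breaks vessels and membranes at the centre of the lesion. Blood-borne neutrophils are known to enter first and monocytes to follow, while astrocytes and microglia around the lesion become reactive and stressed cells make chaperones and metal-binding and antioxidant proteins. Interleukin-1 is among the early alarm cytokines of this response.

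Each gene was represented by its brightest probe set with 1 gene symbol, and genes were ranked by the mean of the 4 log2 values, which gave 19938 genes between 3.26 and 14.06. A gene was called bright when its mean was in the top 10% of all genes, at 10.42 or higher. It was called background when its mean was no higher than 6.84, the 95th percentile of 1224 odorant, vomeronasal and taste receptor genes, which cord and blood cells are not known to use and whose median was 5.03. All other genes were called middling. By these bounds 1994 genes were bright (10%), 12518 were middling (62.8%) and 5426 were background (27.2%), and a list of genes is read below against these shares. A second reference of 53 genes of liver, pancreas, eye, skin, testis and other organs set a caution for the dim end. Of these, 34 were background, 19 were middling and none was bright, and their 95th percentile was 7.72. The 3001 genes between 6.84 and 7.72 (15.1% of all) thus lie in a range that genes of other organs also reach, and a middling gene below 7.72 is not shown to be expressed. In all, 8427 genes (42.3%) lay at or below 7.72. Counts of list members above this other-tissue bound are to be read against that share. Probe sets differ in how strongly they report the same amount of RNA, so a rank describes array signal and not the number of transcripts, and the order of genes close to each other carries no meaning. Just above the bright bound lay Gnptab, F2rl2, Minar2, Plcb4 and Susd6, and just below it Htr2c, Kcnab1, Pa2g4, Yipf5 and Car11, all at 10.4. Around the background bound, Fpr-rs3, Olfr1388, Cdhr4, Mmp12 and Scarna8 lay just above and Clec3b, Slc9a3, Cyp4f15, Ccdc60 and Drc1 just below.

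The 4 arrays resembled each other closely across genes, which are not independent replicates, with Pearson correlations between 0.994 and 0.998. Replicate 1 had the highest mean over the chemosensory receptor genes, 5.27, against 5.11, 5.08 and 5.17 on replicates 2, 3 and 4. The lymphocyte, other-tissue, motor neuron, ependymal, cytokine and sex-linked lists had the same order of arrays, as did the mean of all genes. The neutrophil, muscle and cell cycle lists were among those that did not. Xist, the transcript that silences one X chromosome, was bright on all 4 arrays (11.89 to 12.19), while the Y-linked genes Kdm5d, Uty and Eif2s3y were background, at means of 5.11, 4.47 and 3.82. The labels give no sex.

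**Figure D1:**
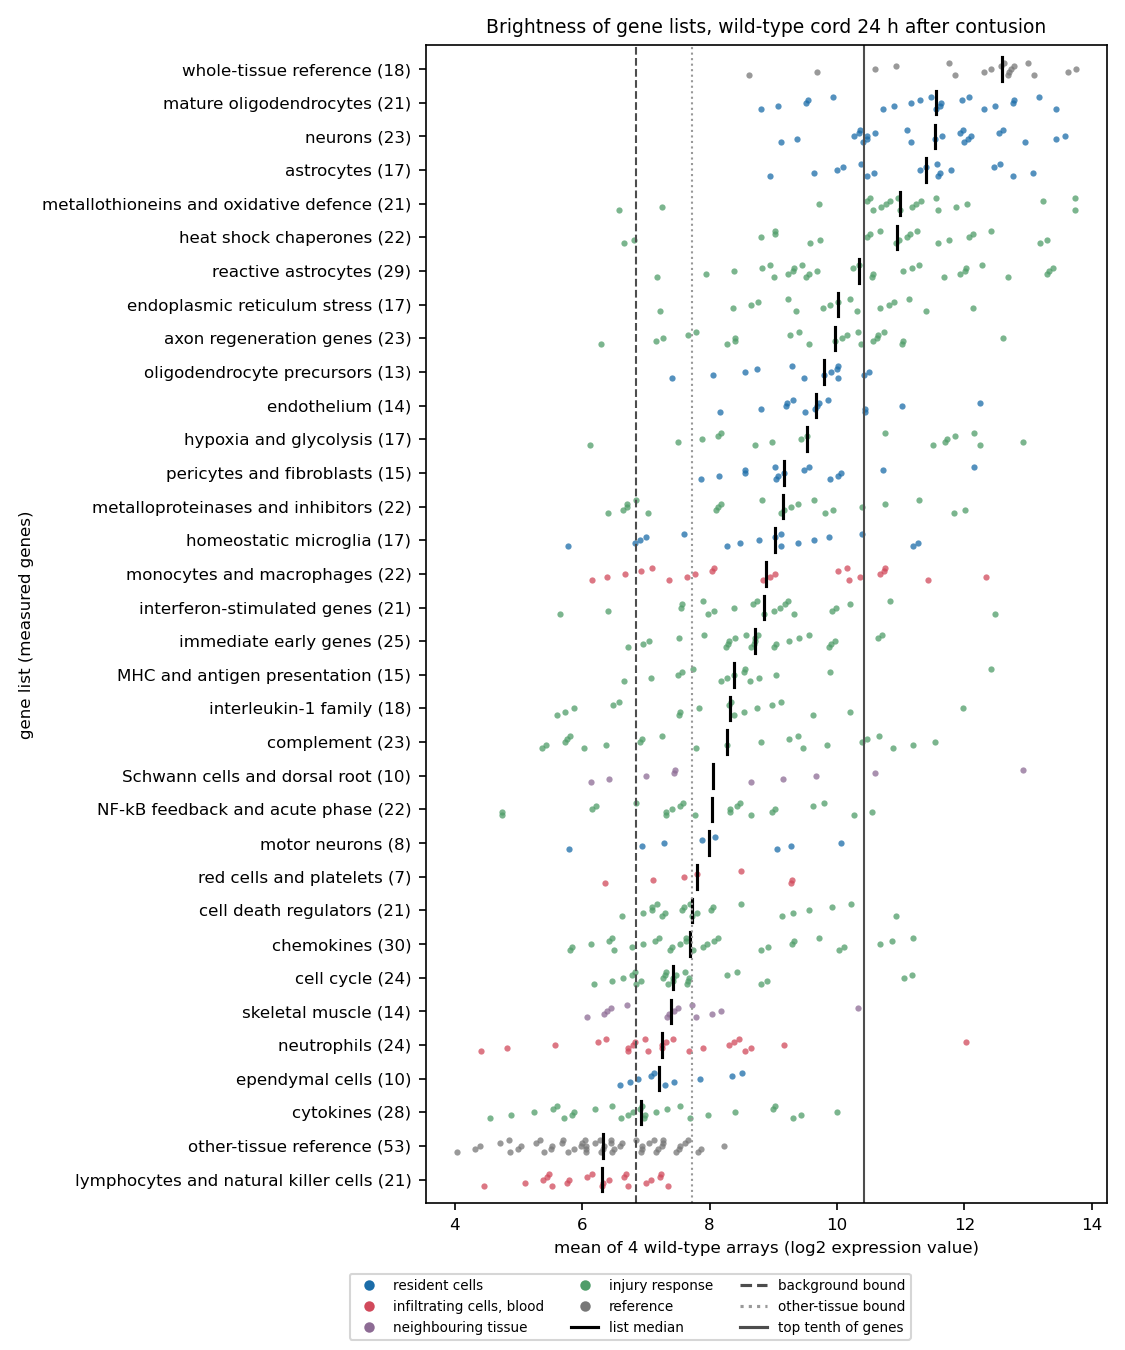
Mean log2 value over the 4 wild-type arrays (x axis) of every measured member of each gene list (y axis, number of measured genes in brackets), with a short black line at the list's median and vertical lines at the background bound of 6.84, the other-tissue bound of 7.72 and the bright bound of 10.42. Neuron, astrocyte and mature oligodendrocyte genes lie mostly to the right of the bright bound, and lymphocyte genes lie where genes of other organs lie.

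The brightest genes were a mixture of housekeeping, neural and injury-associated transcripts. Rn7sk, the small nuclear RNA that holds back transcription elongation, led at 14.06 ± 0.0363 (SD, n = 4) by the brighter of its 2 probe sets. The other averaged 13.44, and the mean of both, 13.75, would place it below Rny3. Next came Baiap2l1, an adaptor of the actin cytoskeleton, at 14.02 ± 0.0227 (SD, n = 4). Baiap2l1 also owes its place to the choice of the brightest probe set, since its 3 probe sets averaged 14.02, 12.02 and 7.60. Rny3, a small cytoplasmic RNA, Actb, which encodes beta-actin, and Eef1a1, a translation elongation factor, averaged 13.91, 13.75 and 13.63. Fth1, the heavy chain of the iron store ferritin, and Mt2, a metallothionein that binds zinc and copper, averaged 13.74 ± 0.0172 (SD, n = 4) and 13.73 ± 0.0338 (SD, n = 4). The neuronal genes Vsnl1, a calcium sensor, and Snap25, a component of the synaptic vesicle fusion complex, stood at 13.58 and 13.44, and Trf, the iron carrier transferrin made by oligodendrocytes, at 13.44. The remaining genes of the leading 15 were Serpina3n, Rps6, Vim, Hspb1 and Txn1, all between 13.3 and 13.4. Of these, Serpina3n, Vim and Hspb1 are genes known from reactive astrocytes. Among genes on no list, the leading ones also included Ckb, the brain creatine kinase, Sparcl1, a matrix protein secreted by astrocytes, and Cd81, a tetraspanin, at 13.22, 13.19 and 13.14.

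Genes of neurons were bright as a group. Of 23 measured neuronal genes, 17 were bright, 6 were middling and none was background, with a median at percentile 97.6 of all genes. Nefl, the light neurofilament chain, read 12.95, 12.97, 12.98 and 12.93 on replicates 1 to 4. No array stood apart. Stmn2, a regulator of axonal microtubules, averaged 12.60, and Slc6a5, the glycine transporter of inhibitory cord neurons, 12.54. The dimmest were Slc32a1, the vesicular transporter of GABA and glycine, at 9.38 and Elavl4, a neuronal RNA-binding protein, at 9.12. Motor neuron genes gave dimmer signals, for a reason that was not tested. Of 8 genes none was bright, 7 were middling and Mnx1, a motor neuron transcription factor, was background at 5.79. Slc18a3 and Slc5a7, which load vesicles with acetylcholine and take up choline, averaged 10.06 ± 0.118 and 9.27 ± 0.0700 (SD, n = 4), and Chat, which makes acetylcholine, 8.08 ± 0.0723 (SD, n = 4). The other-tissue bound was exceeded by 5 of the 8 and not by 3, whereas 42.3% of all genes lay at or below it. All 8 had their highest reading on replicate 1. So did 41.0% of all genes, 33.8% of middling genes, 65.4% of chemosensory receptor genes and 77.4% of other-tissue genes.

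Astrocyte and myelin genes were as uniformly high. Of 17 astrocyte genes 12 were bright and 5 middling, with a median at percentile 97.0. Aldoc, a glycolytic enzyme of astrocytes, averaged 13.08, Atp1b2, a sodium pump subunit, 12.76 and Glul, which makes glutamine, 12.56. Aqp4, the water channel of astrocytic endfeet, read 11.64, 11.62, 11.59 and 11.61, so no array stood apart. Gjb6, a gap junction protein, was the dimmest at 8.94. Of 21 genes of mature oligodendrocytes 16 were bright and 5 middling, with a median at percentile 97.6. Apod, a lipid carrier, Cldn11, the tight junction protein of myelin, and Mbp, the myelin basic protein, averaged 13.16, 12.78 and 12.76. Mbp read 12.77, 12.78, 12.75 and 12.75, again with no array apart. Opalin, a myelin membrane protein, was the dimmest at 8.81 and the most uneven of those named, with replicate 1 at 8.51 and the other arrays between 8.85 and 9.02. Precursor genes were lower in rank, with 1 of 13 bright, 12 middling and none background. Lhfpl3 averaged 10.50, Olig1, a lineage transcription factor, 10.42 and Pdgfra, the growth factor receptor of precursors, 10.01. Neu4, a sialidase, was the dimmest at 7.41.

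Microglial genes were mostly middling, from 5.77 to 11.28. Of 17 measured, 2 were bright, 13 middling (76.5%, against 62.8% of all genes) and 2 background. The other-tissue bound was exceeded by 12 and not by 5, whereas 42.3% of all genes lay at or below it. Olfml3 and C1qb, the B chain of the complement recognition protein C1q, averaged 11.28 ± 0.109 and 11.20 ± 0.100 (SD, n = 4). Csf1r and Cx3cr1, receptors for CSF1 and fractalkine, averaged 9.87 and 9.64. Tmem119, a membrane protein used to mark resident microglia, read 8.38, 8.36, 8.03 and 8.28, with replicate 3 lowest. P2ry12, the purine receptor that also marks resting microglia, read 7.64, 7.51, 7.63 and 7.61, all below the other-tissue bound of 7.72. Aif1, which encodes the common immunostaining target IBA1, averaged 6.91 ± 0.141 (SD, n = 4), next to the background bound, and the receptor Gpr34 was background at 5.77 ± 0.130 (SD, n = 4). Whether these low readings reflect the tissue or the probe sets was not tested.

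Vascular genes were all above background. Of 14 endothelial genes 4 were bright and 10 middling. Slc2a1, the glucose transporter of the blood-brain barrier, averaged 12.24, Mfsd2a, its lipid transporter, 11.01 and Cdh5, the endothelial cadherin, 10.44, while Kdr, a VEGF receptor, was the dimmest at 8.16. Of 15 pericyte and fibroblast genes 2 were bright, Dcn, a collagen-binding proteoglycan, at 12.15 ± 0.179 (SD, n = 4) and Vtn, the adhesion protein vitronectin, at 10.73 ± 0.252 (SD, n = 4). On both of these, replicate 2 was highest (12.39 and 11.07). The other 13 were middling, down to the smooth muscle myosin Myh11 at 7.86. Of 10 ependymal genes none was bright, 8 were middling and 2 background, and 3 exceeded the other-tissue bound. At or below that bound lay 7, against 42.3% of all genes. Foxj1, the regulator of motile cilia, read 8.51, 8.34, 8.19 and 8.35, and the chemerin gene Rarres2 averaged 8.51.

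Genes of neighbouring tissue show what else the piece may hold. Of 10 genes of Schwann cells and dorsal root 2 were bright, 6 middling and 2 background. The bright ones were Pmp22, a peripheral myelin protein, at 12.93 and Pllp, a myelin lipid-raft protein, at 10.59, and both are also known from other glia or tissues. Scn10a and Trpv1, channels of sensory neurons in the ganglion, were background at 6.15 and 6.42. Of 14 muscle genes none was bright, 9 were middling and 5 background, and 5 exceeded the other-tissue bound. At or below that bound lay 9, against 42.3% of all genes. The brightest, Pvalb, at 10.33 is a calcium buffer that cord interneurons also make. Acta1, the actin of skeletal muscle, read 8.40, 7.92, 8.53 and 7.89, and Atp2a1, its calcium pump, 7.86, 7.31, 8.46 and 7.52. Both were higher on replicates 1 and 3 than on replicates 2 and 4, while Myh1, a fast muscle myosin, was background at 6.07.

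Neutrophil genes were few above the dim range. Of 24 measured, 1 was bright, 14 were middling and 9 were background, with a median at percentile 34.1. The other-tissue bound was exceeded by 8 and not by 16, whereas 42.3% of all genes lay at or below it. The bright one, Lcn2, an iron-scavenging protein, read 11.83, 12.01, 12.21 and 12.03, with replicate 1 lowest. Lcn2 is also made by reactive astrocytes and stands on that list too. Mmp9, gelatinase B, read 9.08, 9.12, 9.26 and 9.25. S100a8 and S100a9, the subunits of calprotectin, which is abundant in neutrophils, averaged 8.55 ± 0.197 and 8.46 ± 0.131 (SD, n = 4). S100a8 stood at 8.85 on replicate 4 and between 8.44 and 8.47 on the others. Cxcr2, the receptor that draws neutrophils to CXCL1 and CXCL2, read 8.27, 8.48, 8.92 and 8.94, higher on replicates 3 and 4. Csf3r, the receptor for the growth factor G-CSF, averaged 8.39 and Il1r2, the decoy receptor of interleukin-1, 8.30. Of further granule protein genes, named after their values were seen, Mpo averaged 7.26, Elane 6.98, Camp 6.71, Ltf 6.37 and Ctsg 5.58. Ly6g, the usual surface marker of mouse neutrophils, was background at 6.71 ± 0.0972 (SD, n = 4).

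Genes of monocytes and macrophages ranked higher than those of neutrophils as a list, with a median at percentile 64.7. Of 22 measured, 5 were bright, 14 middling and 3 background. The other-tissue bound was exceeded by 15 and not by 7, whereas 42.3% of all genes lay at or below it. The bright ones were Fn1 (fibronectin) at 12.34, Thbs1 (thrombospondin 1) at 11.43, Cd68, a lysosomal protein of phagocytes, at 10.75, Lyz2, lysozyme, at 10.73 and Fabp5, a fatty acid carrier, at 10.68. Fn1 and Thbs1 are also made by vessels and astrocytes, and Cd68 and Lyz2 by activated microglia, so these do not mark blood-borne cells alone. Arg1, arginase, which is known from macrophages of wounds, read 10.10, 10.09, 10.19 and 10.22, a narrow range. Nos2, the inducible nitric oxide synthase, averaged 6.92 ± 0.172 (SD, n = 4), with replicates 2 and 3 at 6.76 and 6.79 below the background bound and replicates 1 and 4 above it. Ccr2, the receptor of inflammatory monocytes, averaged 8.04. Chil3, a chitinase-like protein of activated myeloid cells, read 7.45, 6.78, 8.47 and 7.90 and had the largest SD of all genes above background, 0.714. Its replicate 2 lay below the background bound and its replicate 3 well above the other-tissue bound. Plac8 and Ms4a7 were background at 6.39 and 6.16.

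Lymphocyte genes could not be told from background. Of 21 genes of lymphocytes and natural killer cells none was bright, 5 were middling and 16 were background, and none exceeded the other-tissue bound. Cd3e, a chain of the T cell receptor complex, was the highest at 7.34, and read 7.56, 7.24, 7.14 and 7.43. Cd4 averaged 6.43, Ms4a1, the B cell antigen CD20, 5.39 and Klrb1c, the antigen NK1.1, 4.46. The list's mean on replicates 1 to 4 was 6.36, 6.13, 6.03 and 6.28, highest on replicate 1 and lowest on replicate 3, as for the chemosensory receptor genes. Of the red cell and platelet genes only 7 of 16 were measured, Hba-a1 not among them, and 6 were middling and 1 background. The platelet chemokines Ppbp and Pf4 averaged 9.29 and 9.28, and Alas2, which starts haem synthesis in red cell precursors, 8.49.

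**Figure D2:**
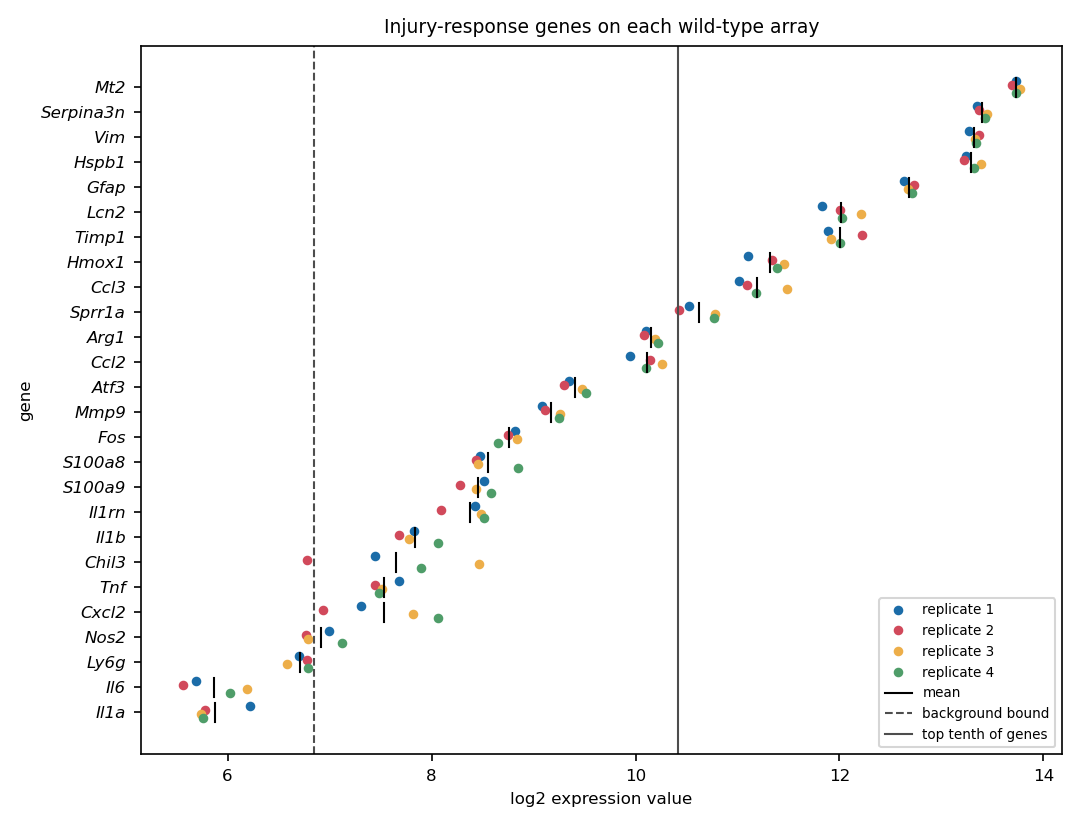
Log2 value on each of the 4 wild-type arrays (coloured points, replicates 1 to 4) and mean (black line) of selected injury-response genes, chosen after their values were seen, with the background bound of 6.84 (dashed) and the bright bound of 10.42 (solid). Mt2, Serpina3n, Vim and Hspb1 lie above 13 on every array, Il1b lies between 7.68 and 8.06, and Chil3 and Cxcl2 are the most scattered.

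Genes of reactive astrocytes were bright or middling. Of 29 measured, 14 were bright, 15 middling and none background, with a median at percentile 89.2. The other-tissue bound was exceeded by 28 and not by 1, whereas 42.3% of all genes lay at or below it. Serpina3n, a secreted protease inhibitor, read 13.35, 13.37, 13.44 and 13.43. Vim, the intermediate filament vimentin, read 13.27, 13.36, 13.32 and 13.34, and Gfap, the astrocytic filament protein, 12.63, 12.73, 12.67 and 12.71. All 3 were lowest on replicate 1, by small margins. Timp1, an inhibitor of matrix-degrading enzymes, read 11.89, 12.22, 11.91 and 12.00, highest on replicate 2. S100a10 and Tm4sf1 averaged 12.27 and 11.93. Other bright members were Il6st, which encodes the receptor chain gp130, at 11.69, the transcription factor Stat3 at 11.29 and Osmr, the oncostatin M receptor, at 10.57. Ptgs2, the inducible cyclooxygenase, averaged 10.25, Socs3, the feedback inhibitor of this pathway, 9.56 by the brighter of its 2 probe sets (the other 7.42), and Nes, nestin, 9.45. The dimmest was B3gnt5, a glycosyltransferase, at 7.17.

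Metal-binding and antioxidant genes were among the brightest of the injury lists, with 18 of 21 bright, 2 middling and 1 background and a median at percentile 94.9. Mt2 read 13.73, 13.69, 13.77 and 13.73 and Mt1 13.21, 13.16, 13.27 and 13.28. Ftl1, the ferritin light chain, averaged 12.03. Hmox1, which breaks down haem, read 11.10, 11.34, 11.46 and 11.39, with replicate 1 lowest. Sod1 and Sod2, which remove superoxide, averaged 11.87 and 11.55, and Slc7a11, the cystine importer, 10.69. The exceptions were Txnrd1, thioredoxin reductase, at 9.71, Nqo1, a quinone reductase, at 7.25 and Mt4, the metallothionein of squamous epithelium, which was background at 6.57. Chaperone genes were alike, with 15 of 22 bright, 5 middling and 2 background and a median at percentile 94.6. Hspb1, the small heat shock protein HSP27, read 13.24, 13.22, 13.38 and 13.32. The constitutive Hspa8 and Hsp90aa1 averaged 13.19 and 12.41, and Cryab, alpha-B-crystallin, 12.07. Hspa1a, the strongly inducible HSP70, was middling at 9.03 ± 0.0691 (SD, n = 4), and Hspb3, known from muscle, was background at 6.66.

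The promoters of Mt1, Mt2 and Hspb1, which are bright, and of the middling genes Il1b and S100a8 from the interleukin-1 and neutrophil lists are shown here, to let motifs known from inducible genes be read in them. Each is the 250 bases before the annotated start in RefSeq's GRCm38.p6 table, 5′ to 3′ on the gene's own strand, in lower case with motif matches in capitals. Matches were searched on both strands. The core of the metal response element was written as TGCACNC or TGCGCNC. It marks Mt1 (chr8:94178839-94179088, plus strand) and Mt2 (chr8:94172368-94172617, plus strand). A pair of heat shock units, GAANNTTC, marks Hspb1 (chr5:135887669-135887918, plus strand). The TATA box, TATAAA on the gene's strand with its first base 45 to 16 bases before the start, marks Il1b (chr2:129371140-129371389, minus strand) and S100a8 (chr3:90668821-90669070, plus strand).
Mt1: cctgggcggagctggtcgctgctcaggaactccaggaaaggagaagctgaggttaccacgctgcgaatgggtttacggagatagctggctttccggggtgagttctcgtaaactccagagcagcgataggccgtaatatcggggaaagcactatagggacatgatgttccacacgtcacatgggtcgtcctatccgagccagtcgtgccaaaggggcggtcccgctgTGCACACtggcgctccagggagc
Mt2: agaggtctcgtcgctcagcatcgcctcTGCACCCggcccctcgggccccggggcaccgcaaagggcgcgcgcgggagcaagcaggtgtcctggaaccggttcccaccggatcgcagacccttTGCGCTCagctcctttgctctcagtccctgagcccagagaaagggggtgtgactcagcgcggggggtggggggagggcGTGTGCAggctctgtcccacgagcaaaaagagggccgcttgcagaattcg
Hspb1: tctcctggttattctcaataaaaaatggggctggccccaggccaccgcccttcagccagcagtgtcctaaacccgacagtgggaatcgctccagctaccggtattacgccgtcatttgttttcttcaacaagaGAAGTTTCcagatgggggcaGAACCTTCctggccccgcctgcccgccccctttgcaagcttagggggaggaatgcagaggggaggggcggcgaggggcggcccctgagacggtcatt
Il1b: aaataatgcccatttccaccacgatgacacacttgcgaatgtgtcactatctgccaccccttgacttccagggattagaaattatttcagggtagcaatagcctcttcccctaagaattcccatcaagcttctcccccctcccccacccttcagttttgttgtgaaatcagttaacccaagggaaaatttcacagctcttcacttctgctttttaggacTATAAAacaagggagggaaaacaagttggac
S100a8: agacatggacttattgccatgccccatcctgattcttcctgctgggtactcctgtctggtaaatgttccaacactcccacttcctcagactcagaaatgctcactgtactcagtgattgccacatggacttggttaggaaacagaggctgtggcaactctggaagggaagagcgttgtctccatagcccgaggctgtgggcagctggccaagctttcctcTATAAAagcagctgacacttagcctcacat

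The Mt1 window held 1 metal response core and the Mt2 window 3, of which 1 lay on the reverse strand. Neither window held a TATA box at the position searched. Bases after the annotated start were not searched, so these results hold for the window alone. Cores or a TATA box outside it would be missed, so neither promoter is shown to lack a TATA box. At least 1 core was found in 21.4% of all 32851 promoter windows of this length and 3 or more in 1.26%. The Hspb1 window held 2 heat shock pairs. At least 1 pair was found in 6.69% of all windows and 2 or more in 0.228%. The TATA box stood in 2.22% of all windows. These 5 genes were chosen after their sequences and values had been seen, from 15 injury-response genes. Of the 15, 12 had a window and 8 of those held at least 1 of the 3 motifs. Timp1 and Atf3 each held 1 metal response core and Vim held a TATA box, so neither motif was limited to the genes shown. Serpina3n, Fth1, Gfap and Lcn2 held none. A match is a string of letters and does not show a binding site.

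The interleukin-1 family was distributed much like genes at large. Of 18 measured genes 1 was bright, 12 middling (66.7%, against 62.8% of all genes) and 5 background (27.8%, against 27.2%), with a median at percentile 52.8. The bright one was Il33, an alarm cytokine stored in nuclei of glia, which read 11.86, 11.95, 12.08 and 12.04. Il1b, the secreted agonist whose promoter is printed above, read 7.83, 7.68, 7.78 and 8.06, highest on replicate 4 and close to the other-tissue bound. Il1a, the cell-bound agonist, read 6.22, 5.78, 5.74 and 5.76 and was background on all 4 arrays. Its highest reading fell on replicate 1, the array with the highest chemosensory receptor mean. Il1rn, the natural antagonist, read 8.42, 8.09, 8.48 and 8.51, lowest on replicate 2. Of the receptor and relay genes, Il1rap, the shared receptor chain, averaged 10.21, the adaptor Myd88 9.63 and the kinase Irak1 9.13. Il18r1, the interleukin-18 receptor, was the dimmest at 5.61.

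Few other cytokines stood above the dim range. Of 28 measured none was bright, 15 were middling and 13 background, and 7 exceeded the other-tissue bound. At or below that bound lay 21, against 42.3% of all genes. Csf1, the growth factor of microglia and macrophages, averaged 9.99, Tgfb3 9.44 and Clcf1, a cytokine of the interleukin-6 family, 9.31. Tnf read 7.68, 7.45, 7.51 and 7.48, all below the other-tissue bound. Il6 read 5.69, 5.56, 6.19 and 6.03, all background, higher on replicates 3 and 4. Chemokines were near the shares of all genes, with 3 of 30 bright, 20 middling and 7 background. Of the 30, 15 lay at or below the other-tissue bound, against 42.3% of all genes. Ccl3, which attracts myeloid cells, read 11.02, 11.09, 11.48 and 11.18, highest on replicate 3. Ccl6 averaged 10.86 and Cx3cl1, the neuronal fractalkine, 10.67. Ccl2, which recruits monocytes, read 9.95, 10.14, 10.26 and 10.10, just below the bright bound. Ccl9 and Ccl7 averaged 10.04 and 9.72. The neutrophil attractants were much closer to the dim range, with Cxcl1 at 7.97, 7.64, 7.55 and 7.80 and Cxcl2 at 7.31, 6.93, 7.82 and 8.06. Cxcl2 was lowest on replicate 2 and highest on replicate 4, as was the neutrophil list's mean, at 7.39, 7.22, 7.35 and 7.52. Cxcl5 was background at 5.80. Among NF-kB feedback and acute phase genes 1 of 22 was bright (4.55%, against 10% of all genes). Of the rest, 16 were middling and 5 background (22.7% of the 22, against 27.2%). Cp, the copper carrier ceruloplasmin, averaged 10.54, the lipopolysaccharide-binding protein Lbp 10.26, the inhibitor Nfkbia 9.79 and Saa3 8.48, while Saa1, an acute phase protein of liver, was background at 4.73.

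Immediate early genes, which respond within minutes to activity and stress, were largely middling. Of 25 measured, 2 were bright (8%, against 10% of all genes), 22 middling (88%, against 62.8%) and 1 background (4%, against 27.2%). Dusp1, a phosphatase of stress kinases, averaged 10.70 and Jun 10.64. Fos read 8.81, 8.75, 8.84 and 8.65. Atf3, a transcription factor known to be induced in injured cells, read 9.35, 9.30, 9.48 and 9.51, higher on replicates 3 and 4. Arc, a synaptic activity gene, averaged 8.71, and Nr4a3 was background at 6.72. Genes linked to axon growth ranked high, with 7 of 23 bright, 15 middling and 1 background and a median at percentile 84.4. Sprr1a, a small proline-rich protein known from regenerating axons, read 10.53, 10.43, 10.78 and 10.77. Gap43, a growth cone protein, read 10.63, 10.73, 10.79 and 10.78, and Basp1, its relative in growth cones, averaged 11.02. Rtn4, which encodes the growth inhibitor Nogo, averaged 11.04 and the peptide gene Vip was background at 6.29.

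The lists of endoplasmic reticulum stress and of hypoxia and glycolysis held bright and middling genes, and the latter also 1 background gene. Without uninjured cord these levels do not show that either stress was present. Of 17 genes of the first 6 were bright and 11 middling. Hspa5, its main chaperone BiP, averaged 12.13, Asns, asparagine synthetase, 11.40, Ddit3, which encodes CHOP, 8.75 and Trib3 7.22. Pdia4 ranked as bright at 11.13 by 1 of its 2 probe sets, while the other averaged 7.33. Of 17 hypoxia and glycolysis genes 8 were bright, 8 middling and 1 background. Aldoa averaged 12.92, Pkm 12.15 and Ldha 11.72, enzymes that every cell uses, whereas Vegfa averaged 9.43 and the hypoxia marker Car9 was background at 6.12. Of 21 cell death regulators 1 was bright (4.76%, against 10% of all genes), 19 middling and 1 background. The bright one was Mcl1, a protein that protects from apoptosis, at 10.92. The protective Bcl2l1 and Bcl2 averaged 10.22 and 9.93, and the inflammasome sensor Nlrp3 was background at 6.63. Of 24 cell cycle genes 2 were bright (8.33%, against 10% of all genes), Pcna at 11.17 and Ccnd1 at 11.04. Another 17 were middling (70.8%, against 62.8%) and 5 background (20.8%, against 27.2%). Mki67, the proliferation marker, read 7.26, 7.33, 7.28 and 7.53, below the other-tissue bound on every array, and Bub1, a mitotic checkpoint kinase, was background at 6.19.

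Immune effector lists were mixed. Of 21 interferon-stimulated genes 2 were bright (9.52%, against 10% of all genes), 17 middling (81.0%, against 62.8%) and 2 background (9.52%, against 27.2%). Ifitm3, which blocks virus entry, averaged 12.48, Ifit3 10.21 and Usp18, a brake on interferon signalling, 8.85. Mx1 was background at 5.65 ± 0.0525 (SD, n = 4), as was Mx2 at 6.41. C57BL/6 mice are known to carry a defective copy of Mx1, and whether this bears on its reading was not tested. Of 23 complement genes 5 were bright (21.7%, against 10% of all genes), 11 middling (47.8%, against 62.8%) and 7 background (30.4%, against 27.2%). Cd59a, which protects cells from the terminal complex, averaged 11.54, Serping1, the C1 inhibitor, 10.88 and C4b 10.47, while the terminal components C6, C7, C8a and C9 were background, from 5.36 to 6.38. Of 19 listed genes of antigen presentation 15 were measured. H2-K1, H2-D1 and H2-T23, which encode heavy chains of MHC class I, and H2-DMb1 were not among them. Of the 15, 1 was bright (6.67%, against 10% of all genes), 13 middling and 1 background. The bright one was B2m, the light chain of MHC class I, at 12.41. The class II genes H2-Aa, H2-Ab1 and H2-Eb1 averaged 8.56, 8.27 and 8.38, and the co-stimulatory ligand Cd86 was background at 6.65. Among 22 metalloproteinases and their inhibitors the 4 bright genes were all inhibitors. Timp1, Timp3, Timp2 and Timp4 averaged 12.01, 11.84, 11.29 and 10.75. The enzymes Adamts1, Mmp14, Mmp9 and Mmp2 averaged 10.39, 9.28, 9.18 and 8.83, and Mmp3, Mmp13, Mmp7 and Mmp10 were background. Tox3, a nuclear protein of neurons, averaged 8.13 ± 0.0740 (SD, n = 4). Genes used as whole-tissue references were bright in 16 of 18 cases and middling in 2, down to Gusb at 8.62.

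**Figure D3:**
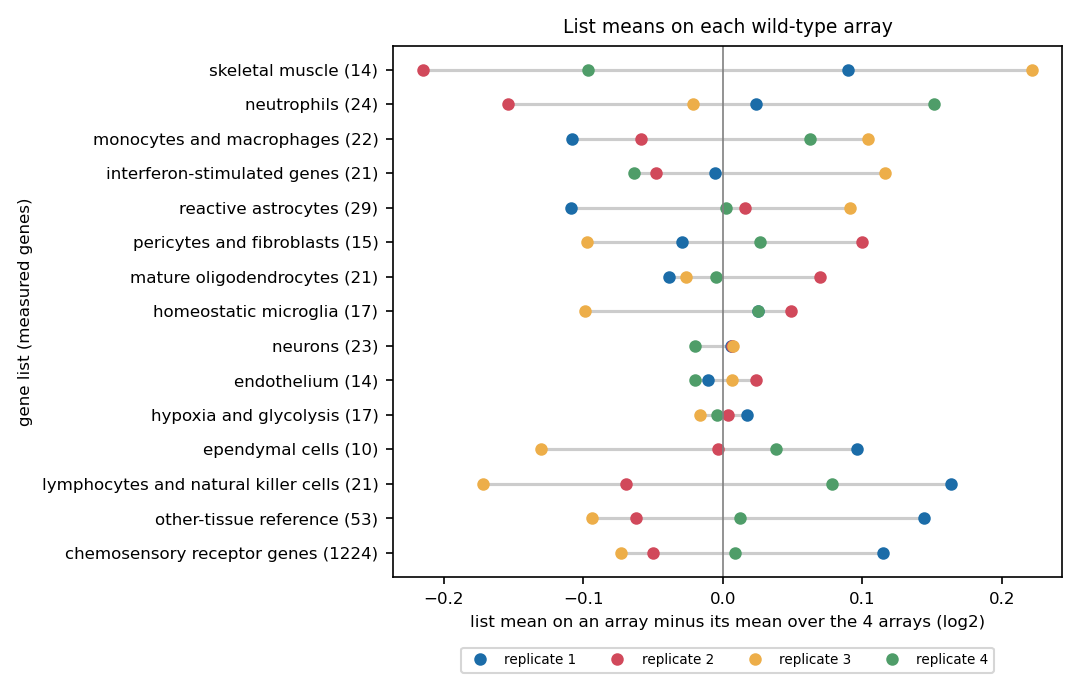
Mean of each gene list on each wild-type array minus that list's mean over the 4 arrays, in log2 units (x axis), for selected lists and the chemosensory receptor genes (y axis, measured genes in brackets), with replicates 1 to 4 as coloured points. Neuron, endothelium and hypoxia lists differ by under 0.05 between arrays, and the muscle list spans from -0.21 to 0.22. The lymphocyte, ependymal and other-tissue lists are ordered like the chemosensory receptor genes.

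The arrays differed by little for most genes, and the differences had a pattern. The median SD of a gene over the 4 arrays was 0.0960, and it was 0.0616 for bright, 0.0911 for middling and 0.126 for background genes. Only 86 of 14512 genes above background had an SD over 0.3. Of the squared deviation from the gene means above background, replicate 1 carried 36.2%, replicate 3 34.7%, replicate 2 19.1% and replicate 4 the rest. As lists, neurons stayed within 11.37 to 11.40. Reactive astrocyte genes averaged 10.38, 10.50, 10.58 and 10.49, lowest on replicate 1, where 72.4% of the members had their lowest reading, against 24.7% of all genes, 41.7% of bright genes and 44.4% of whole-tissue reference genes. Monocyte and macrophage genes averaged 8.78, 8.83, 8.99 and 8.95, higher on replicates 3 and 4. Pericyte and fibroblast genes averaged 9.39, 9.52, 9.32 and 9.45, highest on replicate 2. Muscle genes averaged 7.49, 7.19, 7.63 and 7.31 and were lowest on replicate 2 in 78.6% of members, against 19.7% of all genes. Lymphocyte and other-tissue genes were highest on replicate 1 in 71.4% and 77.4% of members, against 65.4% of chemosensory receptor genes and 41.0% of all genes. The part that the level of background signal on an array plays in these differences was not tested.

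**Figure D4:**
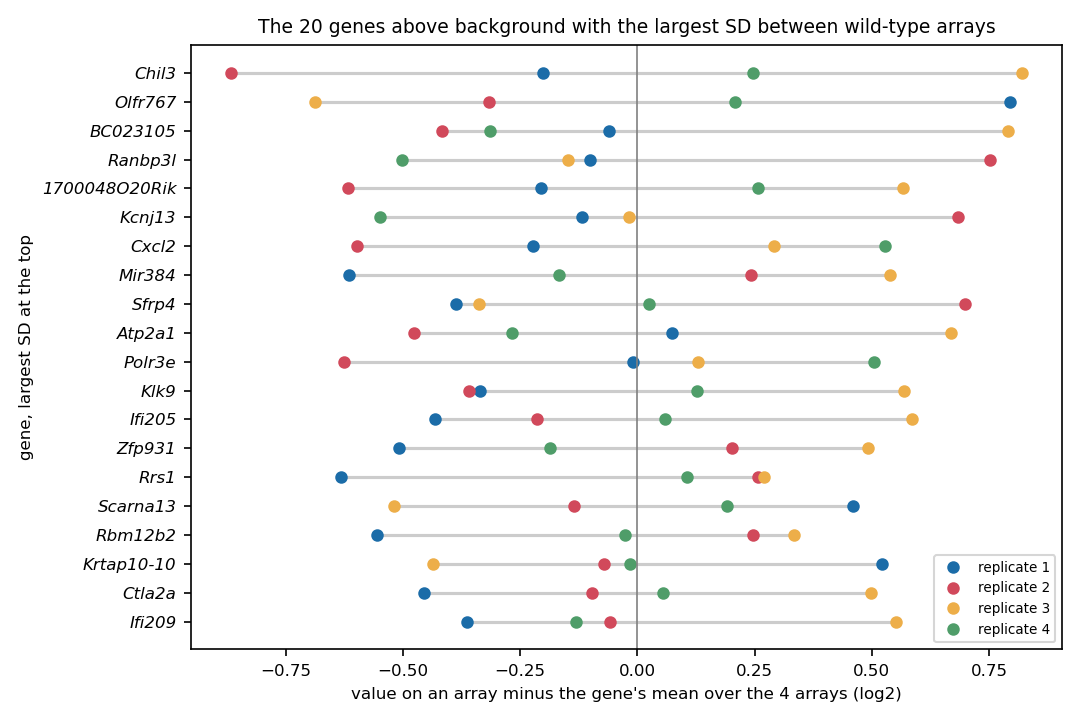
Value on each wild-type array minus the gene's mean over the 4 arrays, in log2 units (x axis), for the 20 genes above background with the largest SD (y axis, largest at the top), with replicates 1 to 4 as coloured points. Chil3 has the largest SD, Ranbp3l, Kcnj13 and Sfrp4 are highest on replicate 2, and Ifi205 and Ifi209 are highest on replicate 3.

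Of the 50 genes above background with the largest SD, 13, 10, 23 and 4 were highest on replicates 1, 2, 3 and 4. Of all genes, 41.0%, 23.1%, 24.6% and 11.3% were highest on these arrays. The same 50 genes were lowest on replicates 1 to 4 in 21, 11, 16 and 2 cases, against 24.7%, 19.7%, 38.4% and 17.3% of all genes. Chil3 and Cxcl2, named above, had SDs of 0.714 and 0.507, and both were lowest on replicate 2. Among the 10 genes with the largest SD, so were Atp2a1, BC023105 and 1700048O20Rik. Ranbp3l read 7.21, 8.06, 7.16 and 6.81 and Kcnj13, a potassium channel, 7.24, 8.04, 7.34 and 6.81. Sfrp4, a secreted Wnt antagonist, read 9.04, 10.13, 9.09 and 9.46. All 3 were highest on replicate 2, as were 4 further genes singled out after their values were seen. Of these Islr read 9.92, Igfbp6, a binding protein of insulin-like growth factors, 9.90, Slc6a20a, an amino acid transporter, 9.45 and the matrix protein Smoc2 8.80 on that array. The interferon-inducible genes Ifi203, Ifi205, Ifi207 and Ifi209, also singled out afterwards, were highest on replicate 3, where they read 7.94, 8.05, 9.72 and 7.81. Atp2a1 had an SD of 0.501 and followed the muscle list. Olfr767, an odorant receptor gene, read 10.10, 8.99, 8.62 and 9.51 and followed the order of the chemosensory receptor genes. The others of the leading 10 were BC023105, 1700048O20Rik and the microRNA gene Mir384, with means of 6.95, 7.72 and 7.48.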

How the data were processed

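The authors deposited 1 log2 value for each probe set on each array. The submitters' processing notes name RMA, limma, Partek and GCOS 1.4 without saying what each did. That the values are RMA summaries was inferred from this list and from their near-equal distribution. RMA gives all arrays 1 distribution and compresses dim genes. Neither detection calls nor scans were analysed, and the platform's genome build is not given in the sources used. Arrays carry no count of reads, and the number of arrays limits the precision.

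Of 35557 probe sets, 21789 had exactly 1 gene symbol in the platform annotation, and 21698 of these were matched by Entrez identifier to RefSeq and given its symbols. Probe sets with several symbols (1621) or none listed (12147) were left out. Of 999 genes with several probe sets, 402 had sets differing by over 1 log2 unit, and the set with the highest mean over the 4 arrays was used. In all, 703 probe sets shared their values with another over the 12 arrays, 131 of them among those used, and were kept. The 35 gene lists held 739 genes, 658 of them measured. Levels, SDs, percentiles and classes were computed with pandas 2.3.3 and numpy 2.4.6 in Python 3.11.15 and checked on simulated arrays. With 1 group there was nothing to test. The members, lists and bounds were chosen with earlier results of these data known.

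Named genes were the 15 brightest, the 3 brightest, the median and the dimmest member of each list, the 10 with the largest SD above background, the 10 brightest on no list and not ribosomal, the 5 on each side of both bounds, and a set of known injury and cell type genes. Other list members are named as examples, chosen after their values were seen. The promoter search was added after the data were seen. A comparison of promoter content between classes was left out, because only 78.3% of genes had a promoter window and it would have been incomplete. Alternatives were other bounds, other ways of handling probe sets, renewed quantile normalization, ranks, and leaving out each replicate.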

Additional observations from a re-analysis of the deposited data

Results flagged for a closer look

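A reading stands apart here when its gap to the nearest of the 4 arrays is most of the whole range. Chance gives this in about 1 in 20 groups of 4, and it was seen for 11 of 235 named genes and 4 of 35 list means. On replicate 1, B2m was low (12.25, others from 12.45 to 12.48) and Il1a high (6.22, others from 5.74 to 5.78). On replicate 2, Ccl6 was low (10.72, others from 10.89 to 10.92), as was Tagln, a smooth muscle protein (9.04, others from 9.19 to 9.22). On replicate 3, Ccne1 (8.78, others from 8.94 to 8.95) and Rarres2 (8.42, others from 8.54 to 8.55) were low, and Mcl1 (10.97, others from 10.90 to 10.91) and Myh11 (7.90, others at 7.85) were high. On replicate 4, Nlrp3 (6.80, others from 6.56 to 6.57) and S100a8 (8.85, others from 8.44 to 8.47) were high and Tox3 was low (8.02, others from 8.16 to 8.17). Among list means, neurons were low on replicate 4 (11.37, others from 11.40), homeostatic microglia (8.65, others from 8.77 to 8.79) and complement (8.20, others from 8.25 to 8.26) were low on replicate 3, and the sex-linked genes, 3 of 4 of them background, were high on replicate 1 (6.41, others from 6.34 to 6.35).

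Signal in the bright range was also present among probe sets that were given no gene. Of 12147 probe sets without a listed gene 943 had means at or above the bright bound, and of 1621 with several symbols 460 did. Which transcripts they report was not analysed here.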

How the results depend on the processing

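No paired analysis was possible because the description uses a single group and no test. With the background bound taken from the other-tissue list, 8427 genes were background in place of 5426, and the number of background members moved by over 1.5 times in 22 of 35 lists, against 11 and 19 with the 90th and 99th percentile of chemosensory receptors. With the top twentieth as bright, 997 genes were bright. A list's median percentile was taken as moved when it shifted by more than its SD over the arrays. With only genes that have 1 probe set, the medians were neurons 97.99, astrocytes 97.36, mature oligodendrocytes 98, endothelium 81.09, pericytes and fibroblasts 71.66, red cells and platelets 44.97, cytokines 29.46, NF-kB 49.19, heat shock 91.75, metallothioneins 95.64, hypoxia 72.47, cell death 43.53, complement 53.36, axon regeneration 86.37 and whole-tissue genes 99.57. With the mean of all probe sets, they were mature oligodendrocytes 97.77, heat shock 93.75, hypoxia 77.94, endoplasmic reticulum stress 83.99 and whole-tissue genes 99.47, and 9 of 235 named gene levels moved by more than their SD. Without identical probe sets the endoplasmic reticulum stress median was 84.26. Leaving out each replicate moved 2 of 35 medians, both without replicate 2. The chemokine median lay between 41.41 and 43.11 and that of pericytes and fibroblasts between 69.67 and 71.16. Signal near background limits every statement on dim genes.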
